A study of Homo sapiens with 12 samples.

Results

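The ZFP36 and BTG/TOB mRNA decay factors are 8 genes, ZFP36, ZFP36L1, ZFP36L2, BTG1, BTG2, BTG3, TOB1 and TOB2, and every probe set annotated to exactly 1 of these symbols was taken. That gave 16 of the 22215 probe sets tested, for 7 of the 8 genes, out of 11963 genes measured; BTG2 was not analysed here. The cells were K562, a long-established human leukemia line that the labels class as AML, and RNA of each sample went onto its own Affymetrix 3' array, 12 in all. The study asked what changing the amount of CXXC5, a CXXC zinc finger protein, does to expression under Wnt stimulation. All cells were held in serum-free medium with Wnt3a protein at 100 ng/ml, and total RNA was taken after 8 h. The arrays form 4 groups of 3. In the overexpression group, cells were transiently transfected with a plasmid for EGFP-tagged CXXC5 (pEGFP-CXXC5), and its control carried the empty pEGFP-C2 plasmid, introduced by nucleofection. In the knockdown group, cells were stably infected with lentivirus (pLKO.1) carrying shRNA against CXXC5, and its control was the line with scrambled shRNA. A pair of CXXC5 shRNA clones is named in the labels, without saying which knockdown sample carried which. Whether replicates are separate cultures is not stated, and the spread behind each p-value may thus be technical. CXXC5 itself was not analysed here, and the groups were not checked by its level.

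These proteins shorten the life of messenger RNAs. ZFP36 (tristetraprolin) and its relatives ZFP36L1 and ZFP36L2 are zinc finger proteins that bind AU-rich elements in messages of cytokines and other early response genes and recruit the CCR4-NOT deadenylase complex. BTG and TOB proteins share an N-terminal domain that binds the deadenylase subunits CNOT7 and CNOT8, and TOB1 and TOB2 also bind the poly(A)-binding protein. Several of the family are themselves rapidly induced genes, and BTG and TOB proteins are known for antiproliferative effects.

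The values are log2 probe set intensities as deposited, between 2.07 and 14.4 over all probe sets, and the log2 scale was inferred from that range. Array medians lay between 6.64 and 6.70, and replicates of a group correlated at 0.996 to 0.998. Cell type markers were read at the brightest probe set of each gene and ranked among all probe sets by mean level. Of the markers of the erythroid K562 line, 8 of 11 were measured and 7 of these lay above the 80th percentile of all probe sets. Of the lymphoid markers, 5 of 6 lay below the 50th percentile, with CD3D the exception at 92.9, as did 8 of 10 fibroblast, epithelial and endothelial markers, among which EPCAM stood at 94.39. One array stood apart in RNA quality: the 3' to 5' difference of the GAPDH control probe sets reached 0.87 log2 in scrambled shRNA replicate 3, while the other 11 arrays lay at 0.227 to 0.335. Fits were also run without scrambled shRNA replicate 3, and why values changed without it was not tested. Calls that changed without that array are pointed out for most of the genes named, not always with both values. In bulk samples, fewer cells of a type and less RNA per cell cannot be told apart.

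Each of the 22215 probe sets was fitted with limma, with 1 mean per group over all 12 arrays, and a probe set was said to rise or fall where its Benjamini-Hochberg adjusted p over all probe sets was under 0.05. With CXXC5 overexpression, 2 of the 16 probe sets rose and 0 fell against empty vector, where 4.19% of all probe sets passed in either direction and 2.27% rose. These were the probe set of ZFP36 and one of the pair for BTG1. Without scrambled shRNA replicate 3, which enters this comparison only through the shared spread, 4 of 16 rose, where 5.61% of all probe sets passed. With CXXC5 knockdown, 6 of 16 fell and 0 rose against scrambled shRNA, where 9.83% of all probe sets passed and 3.7% fell. They were the probe set of ZFP36, the brighter pair of ZFP36L1, one of BTG1 and the brighter pair of BTG3. The knockdown effect minus the overexpression effect was below 0 past the threshold for 7 of 16 probe sets, against 5.82% of all probe sets below 0 and 14.9% in either direction. The median log2 change of the 16 probe sets was 0.12 with overexpression and -0.18 with knockdown, beside -0.001 and -0.007 over all probe sets. Probe sets of 1 gene share their target and are not independent counts. Where groups are said below to overlap or not, this describes 3 arrays against 3. The share of all probe sets without overlap is not given here.

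The control groups differed as well. Scrambled shRNA cells exceeded empty vector cells for 7 of the 16 probe sets and were lower for 0, where 27.7% of all probe sets passed and 13.4% were higher. Vector and delivery differ between these controls and cannot be told apart from the control itself. The knockdown and scrambled shRNA comparisons share the scrambled shRNA arrays, so a high level there enters both. The knockdown effect minus the overexpression effect uses all 4 groups, and the gap between the controls enters it in full. Knockdown cells set directly against empty vector cells gave 0 of 16 probe sets past limma's adjusted threshold, with 2 at an unadjusted p under 0.05, where 3.24% of all probe sets passed. Their median difference there was 0.0951 log2. The scrambled shRNA cells stood highest for ZFP36, ZFP36L1 and BTG3, as the plot of levels by array shows.

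**Figure D1:**
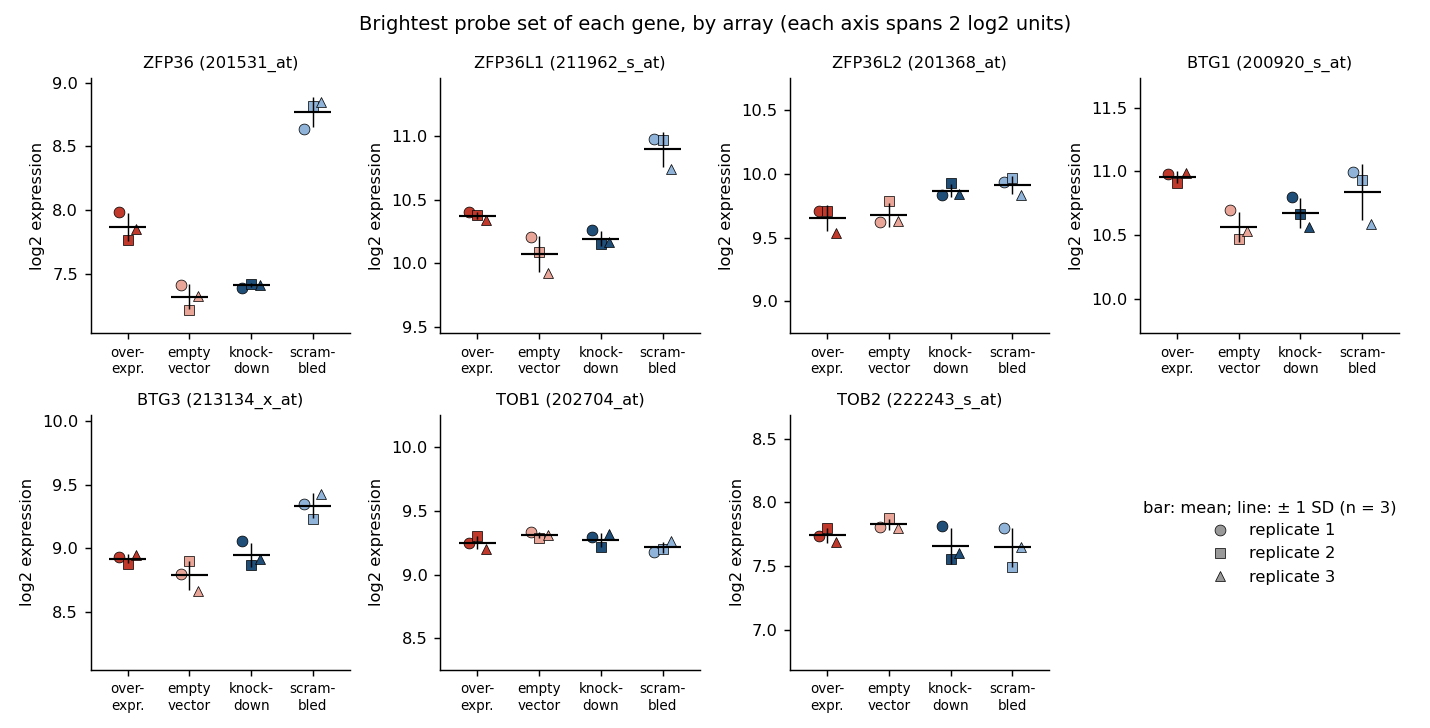
Log2 expression of the brightest probe set of each of the 7 genes on every array, with overexpression left of empty vector and knockdown left of scrambled shRNA; points are arrays, bars are group means and lines are 1 SD (n = 3). Scrambled shRNA arrays sit above all other arrays for ZFP36, ZFP36L1 and BTG3, while TOB1 spans 9.17 to 9.33 over all 12 arrays.

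**Figure D2:**
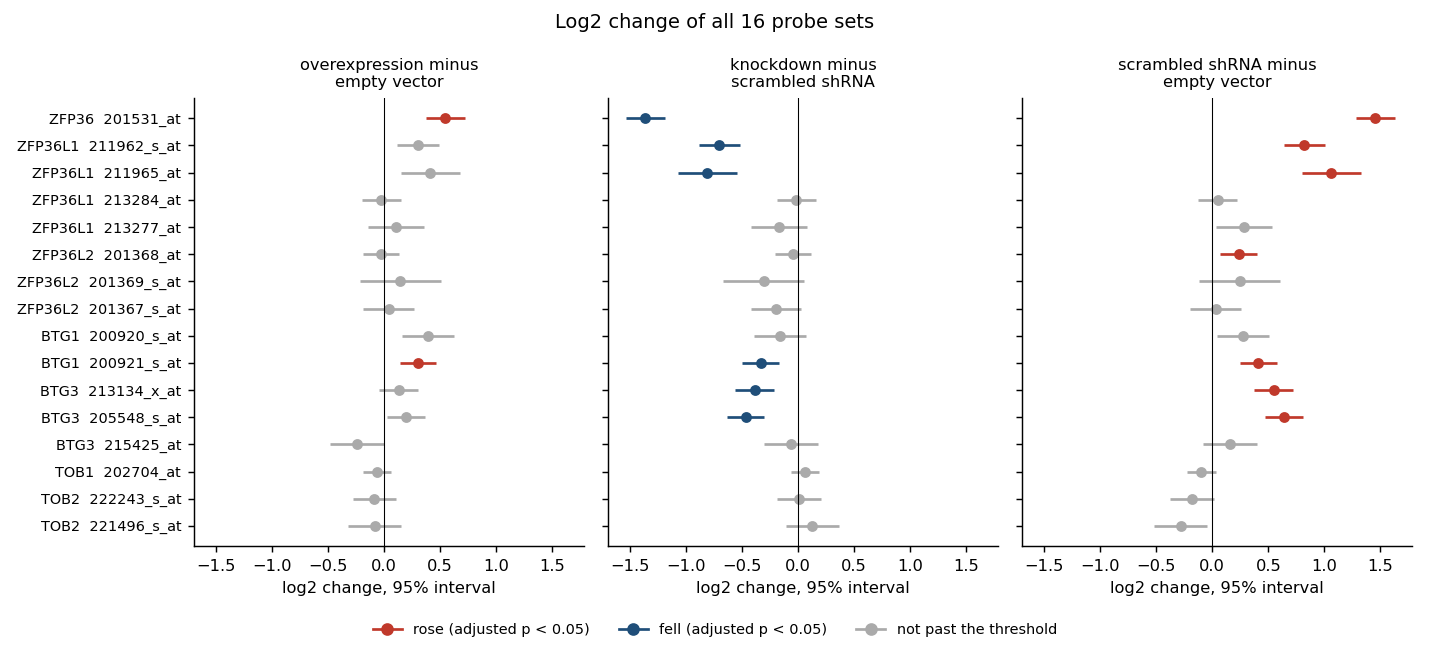
Log2 change of all 16 probe sets with its 95% interval in each comparison; red marks probe sets that rose, blue those that fell and grey those not past the threshold (adjusted p under 0.05, limma). ZFP36 has the largest change in each panel, 0.55 with overexpression, -1.36 with knockdown and 1.45 for scrambled shRNA against empty vector.

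Promoter sequences are shown for the genes whose levels differed between groups, so that their start regions can be compared. RefSeq (GRCh38.p14) gave 8 promoter entries for 6 of the 7 genes, and ZFP36L2 had no entry. The 250 bases before the annotated start were searched on both strands for fixed letters, and the same search was run over all 35116 promoters. Capitals mark TATAA and matches to TGACG, the core of the cAMP response element, whose full form is TGACGTCA; on the other strand TGACG reads CGTCA. Each sequence runs 5′ to 3′ on the gene's strand and ends 1 base before the start. The windows are chr19:39406597-39406846 (plus strand) for ZFP36, chr14:68793417-68793666 (minus strand) for the second ZFP36L1 start, chr12:92145847-92146096 (minus strand) for BTG1 and chr21:17612902-17613151 (minus strand) for BTG3.
ZFP36: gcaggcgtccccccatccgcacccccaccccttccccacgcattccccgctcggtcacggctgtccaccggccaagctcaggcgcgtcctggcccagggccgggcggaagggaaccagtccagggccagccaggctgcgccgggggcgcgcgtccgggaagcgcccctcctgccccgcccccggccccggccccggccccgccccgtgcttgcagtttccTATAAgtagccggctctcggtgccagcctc
ZFP36L1: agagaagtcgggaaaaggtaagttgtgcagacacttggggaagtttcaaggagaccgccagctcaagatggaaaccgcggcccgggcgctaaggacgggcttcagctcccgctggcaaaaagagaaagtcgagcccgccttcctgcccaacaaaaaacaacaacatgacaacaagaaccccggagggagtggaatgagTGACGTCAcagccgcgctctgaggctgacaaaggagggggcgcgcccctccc
BTG1: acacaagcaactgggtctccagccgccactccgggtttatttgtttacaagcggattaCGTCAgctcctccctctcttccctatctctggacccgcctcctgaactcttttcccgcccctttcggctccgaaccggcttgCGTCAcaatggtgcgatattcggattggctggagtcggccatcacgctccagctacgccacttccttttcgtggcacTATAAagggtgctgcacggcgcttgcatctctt
BTG3: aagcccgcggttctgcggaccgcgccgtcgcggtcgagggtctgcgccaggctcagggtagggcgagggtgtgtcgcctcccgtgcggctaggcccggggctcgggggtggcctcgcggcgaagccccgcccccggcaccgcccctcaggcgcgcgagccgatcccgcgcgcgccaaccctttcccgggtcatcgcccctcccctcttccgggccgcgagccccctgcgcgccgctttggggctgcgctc

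The ZFP36 window held TATAA 30 bases upstream of the start, 3 GC boxes (GGGCGG) and 26 CG dinucleotides, and 80.4% of all promoters held fewer CG. In BTG1 there was TATAA 33 bases upstream, TGACG at 192 and 110 bases upstream and 1 GC box. The second ZFP36L1 start had the full TGACGTCA, which contains TGACG on both strands, and its first start (chr14:68796244-68796493) had a single TGACG at 147 bases upstream. BTG3 carried 39 CG dinucleotides, more than 97.3% of promoters, with 2 GC boxes and no TATAA. The windows thus had no one of these motifs in common. For TOB1 the first start had 1 CG and the second had 38 CG, 3 GC boxes and 1 TGACG, and TOB2 had 24 CG and 2 GC boxes. Over all promoters, TGACGTCA was found in 1.65%, TGACG in 21.2%, GGGCGG in 42.6% and TATAA in 18.9%. The AP-1 site TGACTCA (4.2% of all promoters), the EGR site GCGGGGGCG (4.72%), the SRF box (1.16%) and the NF-kB site (9.96%) had no match in the 8 windows. These matches describe letters, and no binding was measured.

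ZFP36, which encodes tristetraprolin, was read by 1 probe set (201531_at). Its log2 level was 7.98, 7.77 and 7.85 in the 3 overexpression arrays, against 7.41, 7.21 and 7.33 in the empty vector arrays. The groups did not overlap, and every overexpression array was higher. The change was 0.55 log2 (SE 0.0800, 1.46-fold; limma adjusted p = 0.00229). In knockdown arrays ZFP36 read 7.39, 7.42 and 7.41, against 8.64, 8.82 and 8.85 in scrambled shRNA arrays. All 3 knockdown arrays lay more than 1 log2 unit below the lowest scrambled shRNA array, and the knockdown values were the tightest of the 4 groups (SD 0.0159, n = 3). The fall was 1.36 log2 (a change of -1.36, SE 0.0800, 2.57-fold lower; limma adjusted p = 1.22e-06). Scrambled shRNA cells exceeded empty vector cells by 1.45 log2 (limma adjusted p = 5.05e-07), so the controls of both comparisons were not at a common level. Ordered by mean, ZFP36 stood at 8.77 ± 0.115 in scrambled shRNA cells, 7.87 ± 0.107 in overexpression cells, 7.41 ± 0.0159 in knockdown cells and 7.32 ± 0.0988 in empty vector cells (SD, n = 3 each). Overexpression minus scrambled shRNA was -0.90 (limma adjusted p = 4.97e-05), in a comparison where 15.3% of all probe sets passed. Overexpression minus knockdown was 0.46 (limma adjusted p = 0.00456), where 11.9% passed. Knockdown and empty vector cells, the lowest neighbours, did not differ past the threshold (0.09, 95% interval -0.08 to 0.26; limma adjusted p = 0.560). The difference between the knockdown and overexpression effects was -1.91 (SE 0.113; limma adjusted p = 9.90e-07). Without scrambled shRNA replicate 3 the knockdown change was -1.32 (limma adjusted p = 2.29e-05), and the overexpression call held without each of the 12 arrays in turn, at 0.49 to 0.60.

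ZFP36L1, the AU-rich element binding relative best known from developmental and lymphoid studies in mice, had 4 probe sets. The brightest (211962_s_at) read 10.40, 10.38 and 10.34 in overexpression arrays, against 10.20, 10.09 and 9.93 in empty vector arrays. Every overexpression array lay above every empty vector array, yet the change of 0.30 (SE 0.0851, 95% interval 0.12 to 0.49) did not pass the threshold over all probe sets (limma adjusted p = 0.0721). Without scrambled shRNA replicate 3 in the fit the same change passed (limma adjusted p = 0.0354). In knockdown arrays it read 10.26, 10.15 and 10.17, against 10.98, 10.97 and 10.74 in scrambled shRNA arrays. The groups were apart, with the lowest scrambled shRNA value on replicate 3. ZFP36L1 fell by 0.70 log2 with knockdown (1.63-fold lower; limma adjusted p = 0.000425), and by 0.78 log2 without scrambled shRNA replicate 3 (limma adjusted p = 0.000434). The second probe set (211965_at) read 7.23, 7.18 and 7.20 in overexpression arrays, against 6.81, 6.81 and 6.73 in empty vector arrays. On knockdown arrays it read 7.36, 6.85 and 6.91, against 7.81, 7.70 and 8.03 in scrambled shRNA arrays. Knockdown replicate 1 stood above the other two, still below every scrambled shRNA array. This probe set changed by 0.41 with overexpression (limma adjusted p = 0.0822) and fell by 0.81 log2 with knockdown (limma adjusted p = 0.00157), or by 0.72 log2 without scrambled shRNA replicate 3 (limma adjusted p = 0.00757). Scrambled shRNA exceeded empty vector by 0.82 and 1.06 on these probe sets (limma adjusted p = 6.26e-05 and 0.000112). In the order of levels, scrambled shRNA cells stood above overexpression cells past the threshold (overexpression minus scrambled shRNA -0.52, limma adjusted p = 0.00307, on the brightest probe set). Overexpression and knockdown cells (0.18, limma adjusted p = 0.193) and knockdown and empty vector cells (0.12, limma adjusted p = 0.450) did not differ past it. The knockdown effect minus the overexpression effect was -1.005 and -1.22 log2 units (limma adjusted p = 0.000199 and 0.000575). The remaining probe sets (213284_at and 213277_at) were dim, at the 23.7th and 12.5th percentile of mean level, and passed in 0 of these comparisons, with 1 unadjusted limma p under 0.05, that of 213277_at for scrambled shRNA minus empty vector (0.28).

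ZFP36L2, another AU-rich element binding relative, did not follow ZFP36 and ZFP36L1 in the overexpression and knockdown comparisons. Its brightest probe set (201368_at) read 9.71, 9.71 and 9.53 in overexpression arrays, against 9.62, 9.79 and 9.63 in empty vector arrays. In knockdown arrays it read 9.83, 9.93 and 9.85, against 9.94, 9.97 and 9.84 in scrambled shRNA arrays. Both pairs of groups overlapped. The change was -0.03 with overexpression (95% interval -0.19 to 0.13; limma adjusted p = 0.906) and -0.04 with knockdown (95% interval -0.21 to 0.12; limma adjusted p = 0.765). Scrambled shRNA cells were 0.23 log2 higher than empty vector cells (limma adjusted p = 0.0341), a call lost without empty vector replicate 1 or 3 or scrambled shRNA replicate 1 or 2, at 0.21 to 0.22 (limma adjusted p = 0.0784 to 0.104). Overexpression minus scrambled shRNA was -0.26 (limma adjusted p = 0.0347), in a comparison where 15.3% of all probe sets passed. Both differences had the same direction as for ZFP36 and ZFP36L1. The second probe set (201369_s_at) read 7.54, 7.42 and 7.28 in knockdown arrays, against 7.51, 7.44 and 8.21 in scrambled shRNA arrays. Its high scrambled shRNA value was on replicate 3, the array with the high GAPDH 3' to 5' difference. The knockdown change was -0.31 with that array (limma adjusted p = 0.284) and -0.06 without it (limma adjusted p = 0.784). Over the 12 arrays these 2 probe sets had a Pearson r of 0.012, and the third (201367_s_at) was dim at the 22.8th percentile.

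BTG1, an antiproliferative protein that binds CNOT7 and CNOT8, was among the brighter messages, at the 91.9th and 90.9th percentile of mean level on its 2 probe sets. The brighter (200920_s_at) read 10.98, 10.90 and 10.99 in overexpression arrays, against 10.69, 10.47 and 10.53 in empty vector arrays. The other (200921_s_at) read 10.72, 10.65 and 10.78 in overexpression arrays, against 10.48, 10.36 and 10.39 in empty vector arrays. On both, every overexpression array was above every empty vector array. The change was 0.39 (SE 0.106; limma adjusted p = 0.0615) on the brighter and 0.30 (SE 0.0752; limma adjusted p = 0.0430) on the other, so the rise passed the threshold on 1 of 2 probe sets. That call was lost without any 1 of 9 arrays, namely each overexpression and empty vector array, knockdown replicate 2 or 3 and scrambled shRNA replicate 1, at changes of 0.27 to 0.34 (limma adjusted p = 0.0576 to 0.166). A fit on only the 6 arrays of the comparison lost that call as well (limma adjusted p = 0.0620). The brighter probe set passed without scrambled shRNA replicate 3 (limma adjusted p = 0.0156), and under other settings too, among them quantile normalization (limma adjusted p = 0.0308) and a fit on 6 arrays (limma adjusted p = 0.0445). It did not pass when any other single array was left out, and with the mean of both probe sets BTG1 rose by 0.35 with overexpression (limma adjusted p = 0.00774) and fell by 0.25 log2 with knockdown (limma adjusted p = 0.0272). In knockdown arrays the brighter probe set read 10.80, 10.66 and 10.56, against 10.99, 10.93 and 10.58 in scrambled shRNA arrays. The other read 10.54, 10.45 and 10.47 in knockdown arrays, against 10.78, 10.71 and 10.97 in scrambled shRNA arrays. Scrambled shRNA replicate 3 was the lowest of its group on one probe set and the highest on the other, which is visible in the plot of probe set pairs. The knockdown change was -0.16 on the brighter (limma adjusted p = 0.390) and -0.33 on the other (limma adjusted p = 0.0161). Without scrambled shRNA replicate 3 these values came to -0.29 (limma adjusted p = 0.0702) and -0.26 (limma adjusted p = 0.0378). The call on 200921_s_at was lost without knockdown replicate 2 or 3, at -0.31 and -0.32 (limma adjusted p = 0.0559 and 0.0555). It was also lost in the fit on 6 arrays (limma adjusted p = 0.0727). Scrambled shRNA exceeded empty vector by 0.27 (limma adjusted p = 0.0752; 0.40 and limma adjusted p = 0.00924 without scrambled shRNA replicate 3) on the brighter and 0.41 (limma adjusted p = 0.00232) on the other. Knockdown minus empty vector was 0.11 (limma adjusted p = 0.589) and 0.08 (limma adjusted p = 0.605). Between the effects of knockdown and overexpression, BTG1 differed by -0.56 and -0.64 (limma adjusted p = 0.0264 and 0.00181), the first of which was lost without any 1 of 8 arrays: overexpression replicate 1 or 3, empty vector replicate 2 or 3, knockdown replicate 2 or 3, and scrambled shRNA replicate 1 or 2 (limma adjusted p = 0.0508 to 0.0699). No neighbouring groups in the order of BTG1 levels differed past the threshold on either probe set.

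BTG3, another antiproliferative BTG protein, was lower with knockdown and did not pass the threshold with overexpression. The brightest probe set (213134_x_at, whose suffix x marks probes that may match other transcripts) read 8.93, 8.88 and 8.95 in overexpression arrays, against 8.80, 8.90 and 8.66 in empty vector arrays. The second (205548_s_at) read 8.29, 8.24 and 8.31 in overexpression arrays, against 8.09, 8.19 and 7.97 in empty vector arrays. The groups overlapped on the first and not on the second. The changes were 0.13 (95% interval -0.04 to 0.30; limma adjusted p = 0.456) and 0.20 (95% interval 0.03 to 0.37; limma adjusted p = 0.207). In knockdown arrays the first read 9.06, 8.87 and 8.92, against 9.35, 9.23 and 9.43 in scrambled shRNA arrays. The second read 8.35, 8.12 and 8.29 in knockdown arrays, against 8.78, 8.72 and 8.67 in scrambled shRNA arrays. Every knockdown array lay below every scrambled shRNA array on both. BTG3 fell by 0.39 log2 (limma adjusted p = 0.00961) and by 0.47 log2 (limma adjusted p = 0.00294), and without scrambled shRNA replicate 3 by 0.34 log2 (limma adjusted p = 0.0325) and 0.49 log2 (limma adjusted p = 0.00670). Scrambled shRNA exceeded empty vector by 0.55 and 0.64 (limma adjusted p = 0.000568 and 0.000177). The knockdown effect minus the overexpression effect was -0.52 and -0.67 (limma adjusted p = 0.00856 and 0.00168). The gap between the controls enters that difference. Overexpression minus knockdown itself was -0.03 and 0.03 (limma adjusted p = 0.855 and 0.868). Scrambled shRNA cells were the highest group, and the 3 other groups in the order had no neighbours that differed past the threshold. The remaining probe set (215425_at), dim at the 13.6th percentile, changed by -0.24 with overexpression and -0.06 with knockdown, neither past the threshold.

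**Figure D3:**
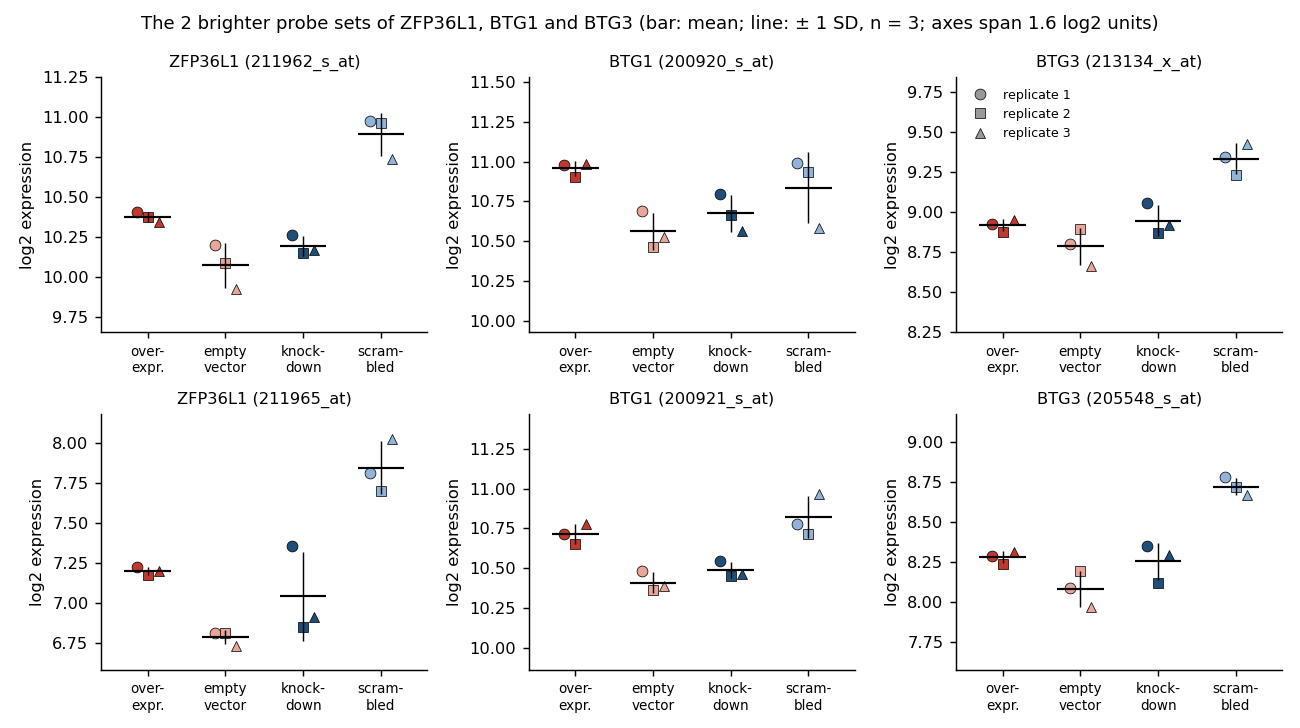
Log2 expression on each array of the 2 brighter probe sets of ZFP36L1, BTG1 and BTG3, with 1 panel per probe set; points are arrays with the replicate number as the symbol, bars are means and lines are 1 SD (n = 3). The pairs correlate over the 12 arrays at 0.913 for ZFP36L1, 0.963 for BTG3 and 0.579 for BTG1, where scrambled shRNA replicate 3 is low on one probe set and high on the other.

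TOB1 and TOB2, which bind both the deadenylase and the poly(A)-binding protein, did not pass the threshold in any comparison of the main fit. TOB1 (202704_at) read 9.25, 9.30 and 9.20 in overexpression arrays, against 9.33, 9.28 and 9.31 in empty vector arrays. In knockdown arrays it read 9.29, 9.21 and 9.32, against 9.17, 9.20 and 9.26 in scrambled shRNA arrays. Both pairs of groups overlapped. TOB1 changed by -0.06 with overexpression (95% interval -0.19 to 0.07; limma adjusted p = 0.679) and by 0.06 with knockdown (95% interval -0.07 to 0.19; limma adjusted p = 0.565). The brighter TOB2 probe set (222243_s_at) read 7.74, 7.80 and 7.69 in overexpression arrays, against 7.80, 7.88 and 7.80 in empty vector arrays. Its values were 7.82, 7.55 and 7.61 in knockdown arrays, against 7.80, 7.49 and 7.65 in scrambled shRNA arrays. These groups overlapped too. TOB2 changed by -0.09 with overexpression (95% interval -0.28 to 0.11; limma adjusted p = 0.705) and by 0.01 with knockdown (95% interval -0.18 to 0.20; limma adjusted p = 0.965). On its dimmer probe set (221496_s_at) the changes were -0.08 and 0.12. The intervals leave out changes of the size seen for ZFP36 but not small ones. For TOB1 and TOB2 the scrambled shRNA cells had the lowest mean of the 4 groups on all 3 probe sets, with no neighbouring groups past the threshold. Scrambled shRNA minus empty vector was -0.10 for TOB1 (limma adjusted p = 0.241). For TOB2 it was -0.18 and -0.28 (limma adjusted p = 0.152 and 0.0740). TOB2 passed there by the mean of its probe sets (-0.23, limma adjusted p = 0.0428). The dimmer probe set passed with quantile normalization, with the replicate block and without empty vector replicate 2 (-0.42, limma adjusted p = 0.00790).

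The genes that these proteins work with were counted in 5 lists, with 1 probe set per gene, the brightest, and adjustment over 11963 genes. At that level 6.98% of all genes passed with overexpression (3.61% rose, 3.37% fell), 14.0% with knockdown (8.79% rose, 5.22% fell) and 31.5% for scrambled shRNA against empty vector (16.2% higher, 15.3% lower). Deadenylase genes, the CCR4-NOT, PAN2-PAN3 and PARN enzymes with poly(A)-binding proteins, had 11 of 17 members measured and 0 past limma's threshold in each of these comparisons, with 0, 3 and 4 at an unadjusted p under 0.05. Their median changes were -0.03 with overexpression and 0.07 with knockdown. CNOT7, the catalytic subunit bound by BTG and TOB proteins, averaged 11.8 ± 0.0592 in knockdown cells and 11.4 ± 0.351 in scrambled shRNA cells (SD, n = 3 each), a change of 0.35 that did not pass (limma adjusted p = 0.103). The CNOT7 change was 0.14 without scrambled shRNA replicate 3 (limma adjusted p = 0.173). With that array left out, 1 deadenylase gene passed for scrambled shRNA minus empty vector. It was CNOT6, at -0.24 (limma adjusted p = 0.040), against -0.19 with the array (limma adjusted p = 0.0731).

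Among the decapping and exonuclease genes, 26 of 31 were measured. With overexpression 0 passed limma's threshold, with 4 at an unadjusted p under 0.05, and 2 rose and 1 fell with knockdown. EIF4ENIF1 (4E-T), a translational repressor and decay factor that binds eIF4E, averaged 8.42 ± 0.0277 in knockdown cells and 7.89 ± 0.123 in scrambled shRNA cells (SD, n = 3 each), a rise of 0.53 (limma adjusted p = 0.000529). It averaged 8.63 ± 0.0837 in empty vector cells, above both, and scrambled shRNA minus empty vector was -0.74 (limma adjusted p = 2.47e-05). LSM1, of the ring that activates decapping, rose by 0.22 (limma adjusted p = 0.0240) and EXOSC5, an exosome subunit, fell by 0.23 (limma adjusted p = 0.0426). The LSM1 call was lost without knockdown replicate 1 or 3 or scrambled shRNA replicate 1 or 2, and the EXOSC5 call without any 1 array other than empty vector replicate 1 and scrambled shRNA replicate 3. Scrambled shRNA cells were higher than empty vector cells for 1 gene of this list, SKIC2 (a call lost without empty vector replicate 2 or 3 or scrambled shRNA replicate 1 or 3), and lower for 6, LSM1 among them at -0.17 (limma adjusted p = 0.0341). SKIC2 differed by 0.20 (limma adjusted p = 0.0350), and by 0.15 without scrambled shRNA replicate 3 (limma adjusted p = 0.102). Without scrambled shRNA replicate 3, 5 genes of this list rose and 1 fell with knockdown, and 1 fell with overexpression, EXOSC8 at -0.19 (limma adjusted p = 0.0376). The genes added with knockdown were the decapping scavenger DCPS, LSM2 and EXOSC4, named after their values were seen.

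Other mRNA stability proteins had 11 of 17 measured, 0 past limma's threshold with overexpression (1 at an unadjusted p under 0.05) and 1 with knockdown. That was TIA1, a translational silencer of AU-rich messages, which rose by 0.30 (limma adjusted p = 0.00959), while scrambled shRNA minus empty vector was -0.29 (limma adjusted p = 0.00533). The kinases, phosphatases and partners that act on ZFP36 proteins had 16 of 20 measured. MAPKAPK2 (MK2), the kinase that phosphorylates tristetraprolin, was the 1 that rose with overexpression, at 9.82 ± 0.0438 in overexpression cells and 9.55 ± 0.0286 in empty vector cells (SD, n = 3 each; 0.27, limma adjusted p = 0.0156). That call was lost without overexpression replicate 1 or 2 or empty vector replicate 2 or 3. With knockdown 2 of these genes rose, the 14-3-3 protein YWHAH by 0.39 (limma adjusted p = 0.0147) and the phosphatase subunit PPP2CA by 0.21 (limma adjusted p = 0.0380). Both were low in scrambled shRNA cells, where scrambled shRNA minus empty vector was -0.37 for YWHAH (limma adjusted p = 0.00919) and -0.34 for PPP2CA (limma adjusted p = 0.00120). The YWHAH call was lost without knockdown replicate 2 or 3, and the PPP2CA call held without overexpression replicate 1 or 3 or knockdown replicate 1 and was lost without any other array. Without scrambled shRNA replicate 3 the PPP2CA change with knockdown was 0.17 (limma adjusted p = 0.0881).

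The fifth list held 24 messages known as targets of ZFP36 proteins, mostly cytokine and early response genes, of which 21 were measured. With overexpression 5 rose and 1 fell, beside 6.98% of all genes past the threshold. IER3, an early response gene, averaged 11.5 ± 0.0782 in overexpression cells and 9.99 ± 0.0603 in empty vector cells (SD, n = 3 each; 1.47, limma adjusted p = 4.01e-06). The cytokine IL6 rose by 0.72 (limma adjusted p = 0.000102) and FOS, an AP-1 subunit, by 0.52 (limma adjusted p = 0.0312), while the chemokine CCL2 fell by 0.41 (limma adjusted p = 0.0324). PLAU and PIM1, named after their values were seen, rose by 0.35 and 0.31 (limma adjusted p = 0.00785 and 0.0157). The FOS call was lost without any 1 overexpression or empty vector array, the CCL2 call without any overexpression array or empty vector replicate 1 or 2, and the PIM1 call without overexpression replicate 1 or empty vector replicate 2. With knockdown 11 of the 21 targets fell and 1 rose, beside 14.0% of all genes. The chemokine CXCL1 averaged 5.70 ± 0.281 in knockdown cells and 9.35 ± 0.171 in scrambled shRNA cells (SD, n = 3 each; -3.65, limma adjusted p = 2.16e-08). CXCL2, CXCL3 and CXCL8, chemokines of the same class, fell by 2.48, 2.38 and 2.22 log2. CCL2, named after its values were seen, was the 1 that rose, by 0.57 (limma adjusted p = 0.00299). The median change of the targets was 0.08 with overexpression and -0.40 with knockdown, beside 0.00 and -0.01 over all genes. With scrambled shRNA replicate 3 left out, 7 targets rose with overexpression, TNF (0.24, limma adjusted p = 0.0313) and LIF (0.37, limma adjusted p = 0.0447) added, and 12 fell with knockdown. TNF read low, at means of 4.57 in overexpression and 4.34 in empty vector cells. These are levels, and decay rates were not measured. Scrambled shRNA cells were the highest of the 4 groups for 17 of the 21 targets (81.0%), as for 33.9% of all genes, and they were higher than empty vector cells for 13 targets and lower for 1. The comparisons share their control arrays, so these counts are not independent.

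**Figure D4:**
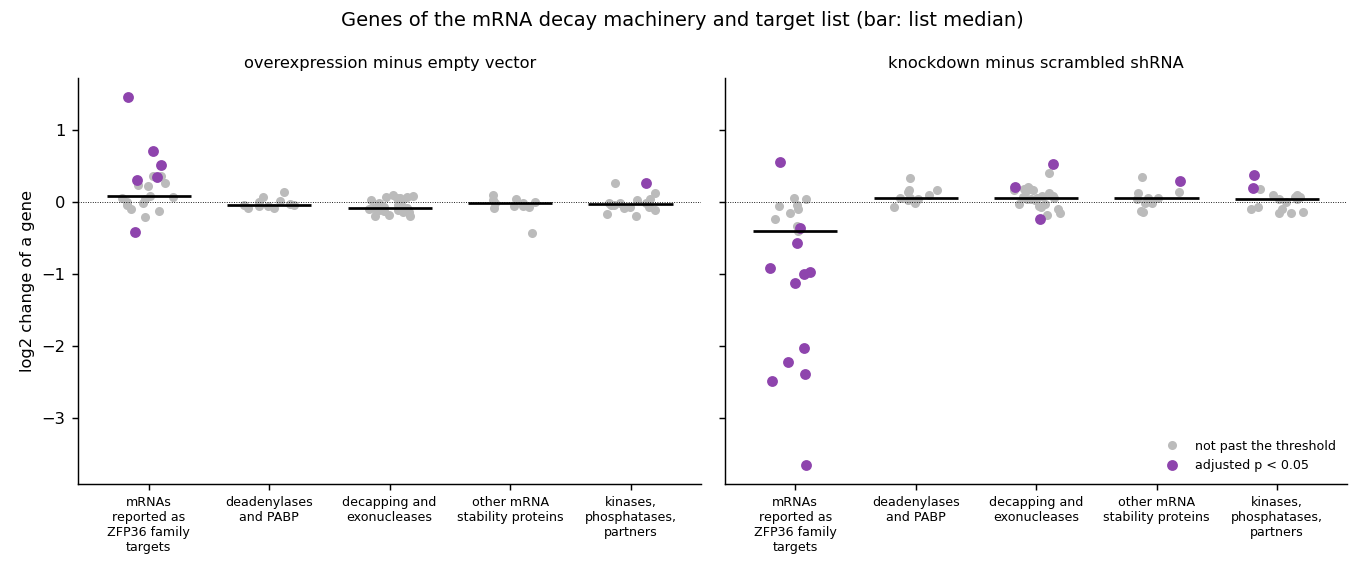
Log2 change of each measured gene of the 5 lists in the overexpression and knockdown comparisons; purple points passed the threshold (adjusted p under 0.05, limma), grey points did not, and bars are list medians. The target list spreads from -0.41 to 1.47 with overexpression and from -3.65 to 0.57 with knockdown, while no deadenylase gene is past the threshold.

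The genes whose levels followed these decay factors most closely were found by Pearson r over the 12 arrays, which share 4 group means, and are given as a description. For ZFP36 they were LTB, which encodes lymphotoxin beta (r = 0.989), NFKBIE, an inhibitor of NF-kB (0.985), and TNF (0.977), with r of 0.515, 0.570 and 0.514 once group means were removed. LTB averaged 9.20 ± 0.068 in overexpression cells and 7.83 ± 0.025 in empty vector cells, and 7.83 ± 0.064 in knockdown cells and 10.995 ± 0.121 in scrambled shRNA cells (SD, n = 3 each). The LTB groups thus stood with scrambled shRNA highest and overexpression next, as for ZFP36. TNF read low, with group means from 4.29 in knockdown cells to 5.19 in scrambled shRNA cells. For ZFP36L1 the nearest were ZBTB5 (0.981), AKAP11 (0.978) and ZBTB11 (0.973), and for BTG3 they were SETDB1 (0.973), the AP-1 subunit JUN (0.964) and ASPH (0.963). Within groups, r lay between 0.718 and 0.894 for the genes like ZFP36L1 and between 0.729 and 0.813 for those like BTG3. JUN averaged 10.2 ± 0.012 in overexpression cells and 10.2 ± 0.074 in empty vector cells, and 10.3 ± 0.086 in knockdown cells and 10.8 ± 0.096 in scrambled shRNA cells (SD, n = 3 each).

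**Figure D5:**
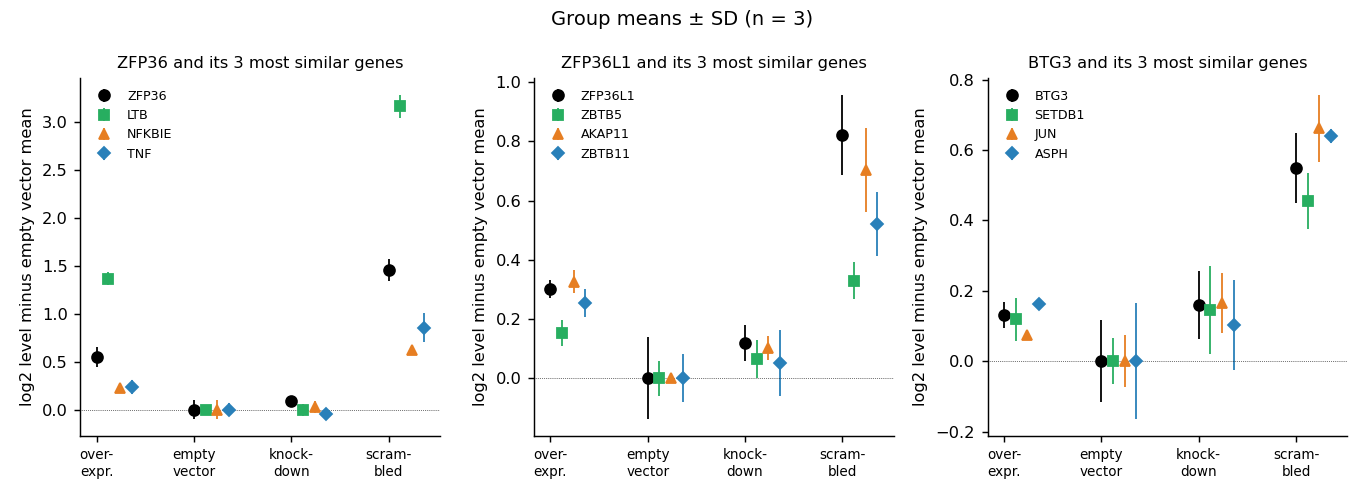
Mean log2 level of ZFP36, ZFP36L1 and BTG3 and of the 3 genes most like each, set against the empty vector mean, in the 4 groups; lines are 1 SD (n = 3). In the ZFP36 panel LTB reaches 3.16 log2 above empty vector in scrambled shRNA cells and 1.36 in overexpression cells.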

How the data were processed

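Expression was read on 12 arrays, 3 in each of 4 groups, from 500 ng of total RNA per sample, per the labels' protocols. The authors deposited 1 log2 value per probe set and array. The submitters' processing notes name Affymetrix Expression Console; its version and summary step were not given in the sources used here. No detection calls or scan batches were used. Of 22277 probe sets, 62 controls were left out. A platform annotation paired 19064 with 1 symbol, 1043 with several and 2108 with none, and 19052 were matched by gene identifier to a RefSeq table (GRCh38.p14).

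All 22215 probe sets were fitted in R 4.3.3 with limma 3.58.1 (lmFit, eBayes, default prior, 8 residual degrees of freedom), two-sided, with Benjamini-Hochberg adjustment. The number of arrays limits the precision. The fit was tested on simulated data. The members and lists were chosen with earlier results of these data known, and the promoter motifs after values were seen. Named were all members and, per list and comparison, up to 4 genes with the largest changes past the threshold, or 2 by smallest p where none passed; not all of these are named above. Alternatives were quantile normalization, median centring, a filter on the lowest 40%, 1 or averaged probe sets per gene, 6 arrays, another prior, weighted arrays, the replicate number as a block, stricter and looser thresholds, and each array left out in turn. Promoter sequences are from RefSeq. Figures were drawn with matplotlib 3.10.9.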

Additional observations from a re-analysis of the deposited data

How the results depend on the processing

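The ZFP36 calls kept their direction and side of the threshold in every alternative run at adjusted p under 0.05 or 0.1. Other calls did not. With overexpression 2 of 16 members were called (4.19% of all probe sets). The count was 5 with quantile normalization (5.25%), with a trended robust prior (6.1%) or with array weights (8.34%). It was 5 of 11 without the lowest 40% of probe sets (9.9%), and 1 to 4 when each array was left out in turn (1.85% to 5.61%). At adjusted p under 0.1 it was 5 and under 0.01 it was 1, with no share over all probe sets given. Deviations of same-numbered samples from their group means correlated at r -0.102 to 0.304, with 4 of 9 pairs over 0.1. Of 18 choices, 8 were best with their own number. A pairing by number was not tested further, and the main fit uses none. With the replicate number as a block 4 members were called with overexpression (4.4% of all probe sets) and 10 for scrambled shRNA minus empty vector (30.3%). Leaving out each array gave 5 to 6 calls with knockdown (5.89% to 9.33% of all probe sets). It gave 6 to 8 for scrambled shRNA minus empty vector (17.9% to 28.4%). For the difference of the effects it gave 6 to 7 (at most 15.2%). With the brightest probe set per gene the calls were 3 of 7 with knockdown (14.0% of all genes) and 4 of 7 for scrambled shRNA minus empty vector (31.5%). For the difference they were 4 of 7 (20.4%), and also 4 of 7 with the mean of probe sets (19.9%). Fewer features were counted there. With overexpression 3 of 7 were called by the brightest probe set (6.98% of all genes), with ZFP36L1 (limma adjusted p = 0.0492) and BTG1 (limma adjusted p = 0.0428) beside ZFP36. By the mean 2 of 7 were called (6.6% of all genes), and ZFP36L1 did not pass (0.20, limma adjusted p = 0.131). The target list gave 3 to 7 higher and 0 to 1 lower with overexpression, and 10 to 12 lower with knockdown, over 16 alternatives. In the main setting 6.98% and 14.0% of all genes passed in these comparisons. The signs that reversed belonged to uncalled members near 0. With overexpression these were ZFP36L2 201367_s_at (-0.0633 with array weights, -0.0291 to 0.157 leaving out arrays), ZFP36L2 201368_at (0.0538 with the mean of probe sets, -0.0581 to 0.0312) and ZFP36L1 213284_at (-0.0665 to 0.0317). With knockdown they were ZFP36L1 213284_at (0.0126 with quantile normalization, -0.0865 to 0.0473), BTG3 215425_at (-0.14 to 0.0551) and TOB2 222243_s_at (-0.0383 with quantile normalization, -0.0162 with array weights, -0.0690 to 0.0861). For scrambled shRNA minus empty vector they were ZFP36L2 201367_s_at (-0.0188 with quantile normalization, -0.0437 to 0.111) and ZFP36L1 213284_at (-0.00085 with quantile normalization, -0.0156 to 0.12). For the difference of the effects they were ZFP36L2 201368_at (-0.0757 to 0.0136) and ZFP36L1 213284_at (-0.0345 with array weights, -0.0640 to 0.0699). The cause was not tested.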
